A study of Homo sapiens with 6 samples.

Results

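The genes described here are 9 that write, erase or read DNA methylation, chosen by symbol: DNMT1, DNMT3A, DNMT3B and UHRF1, which place or maintain the mark, TET1, TET2 and TET3, which oxidise it, and MBD2 and MBD4, which bind it. They are 9 of the 23617 gene symbols measured in MDA-MB-231 cells, a mesenchymal line derived from human breast cancer. HMLER cells, human mammary cells transformed in culture, were the other line sequenced. The study asked which genes change when DNA methylation is blocked with 5-aza-2'-deoxycytidine (decitabine, DAC), given daily at 10 µM and collected at 72 h, against untreated cells. MDA-MB-231 had 1 untreated and 1 DAC library and HMLER had 2 of each, and each library was prepared from several RNA extractions mixed together. The label of the untreated MDA-MB-231 library gives the line as MDA-MB-232, whereas its title gives MDA-MB-231, which was used.

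DNA methylation sits on the cytosine of CpG dinucleotides. DNMT1 copies it onto the new strand after replication, brought there by UHRF1, which recognises hemimethylated CpG, whereas DNMT3A and DNMT3B methylate unmarked sites. TET enzymes oxidise 5-methylcytosine as a first step of its removal, MBD2 recruits the NuRD repressor complex to methylated DNA, and MBD4 is a glycosylase that removes thymine left when methylated cytosine is deaminated. Decitabine is built into DNA and traps DNMT proteins there, so that the protein is lost, and RNA-seq measures the transcripts but not the protein.

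The data were FPKM values, that is fragments scaled to transcript length and library size, and the transcripts of a symbol were summed. Low values lay on whole multiples of what 1 read was worth, from which about 43100000 reads assigned to transcripts were inferred for the untreated MDA-MB-231 library and about 35200000 reads for the DAC library. The authors' scaling gave 1 read nearly the same FPKM in both libraries (ratio 1.01), and the median DAC/untreated ratio, taken over the 11292 symbols that reached 1 FPKM in each library, was 0.912, a log2 shift of -0.13. The summed ratio of each member is therefore also given after division by that median. With 1 library per condition no difference has a replicate check and no p-value is given. The intervals on ratios are exact (Clopper-Pearson, 95%), cover counting error only and compare these libraries, not the conditions. In bulk RNA, fewer cells of a kind and less RNA per cell cannot be told apart. Of the markers of the line, VIM, CD44, AXL and LGALS1 were high in untreated cells (212 to 3066 FPKM) whereas SPARC, also taken as a high marker, was at 2.09 FPKM. Of the 6 markers taken as low, ESR1, PGR and CDH1 were listed at 0, GATA3 was at 0.795 FPKM, EPCAM at 7.90 FPKM and ERBB2 at 11.8 FPKM. In the DAC library VIM and AXL were 2.70-fold and 3.16-fold lower and SPARC and GATA3 5.42-fold and 2.16-fold higher, and 4 markers of leukocytes, endothelium and liver summed to 0.0537 FPKM in the untreated and 0.341 FPKM in the DAC library. The part of these values in the results below was not tested.

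No member passed 2-fold with at least 1 FPKM in 1 of the libraries. TET1 was below 1 FPKM in both libraries and could not be called. Of the 8 members at that level, 0 passed 2-fold upward, beside 10.8% of 12525 symbols, and 0 downward, beside 4.82%. These percentages also count symbols that reached 1 FPKM in only 1 library, whereas the 8 members reached it in both. Of the 11292 symbols that did so, 494 passed 2-fold upward and 466 downward. Directions were mixed over all 9 members: DNMT3B, DNMT3A and MBD4 had the higher value in the DAC library and the other 6 had the lower. The median log2 DAC/untreated ratio of the 8 members at 1 FPKM or more was -0.28, against -0.09 for all 12525 symbols. With the transcript of highest FPKM over both libraries in place of the sum, DNMT3A and DNMT3B passed 2-fold (2.55-fold and 2.34-fold higher). For DNMT3A this picked NM_175630 by its DAC value, since NM_022552 was the most abundant in the untreated library (2.87 FPKM against 1.77 FPKM). Both genes are taken up by transcript below.

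**Figure D1:**
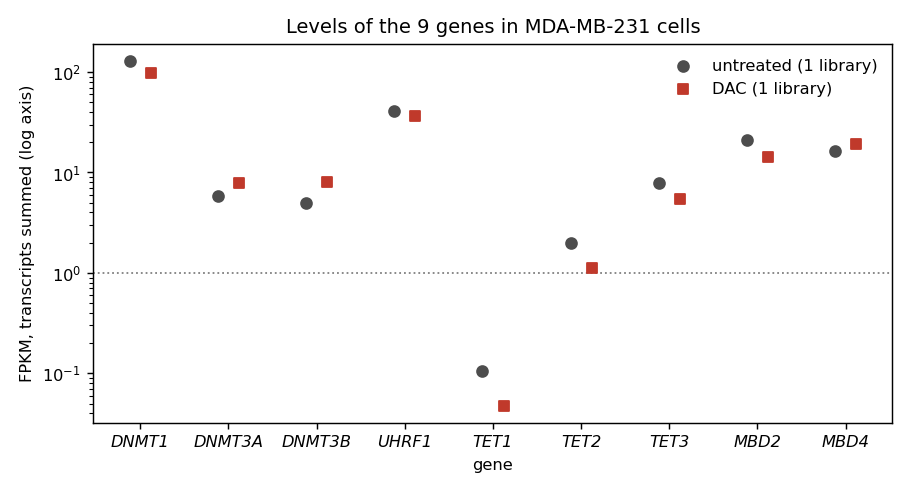
Summed FPKM (log axis) of each gene in the untreated (grey circles) and the DAC (red squares) MDA-MB-231 library, 1 library each, with a dotted line at 1 FPKM. DNMT1 is at the top in both libraries (128 and 96.7 FPKM) and TET1 at the bottom, below 1 FPKM in both.

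The members spanned a wide range of levels. In the untreated library the order by FPKM, which is per length, was DNMT1 at 128, UHRF1 at 40.9, MBD2 at 20.9, MBD4 at 16.4, TET3 at 7.83, DNMT3A at 5.81, DNMT3B at 4.96, TET2 at 1.98 and TET1 at 0.105. In the DAC library MBD4 stood above MBD2, and DNMT3B and DNMT3A above TET3. Which neighbours in this order differ beyond their spread could not be determined from 1 library. DNMT1 stood above 93.3% of symbols at 1 FPKM or more, UHRF1 above 78.1% and TET2 above 15.8%.

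DNMT1, the maintenance methyltransferase (chr19:10244018-10341962, minus strand, GRCh37), was at 128 FPKM in the untreated and 96.7 FPKM in the DAC library. The DAC/untreated ratio was 0.755, or 0.754 (0.741 to 0.768) from 28165 and 21109 inferred reads. After division by the median ratio it was 0.827, still below 1. Scaled to the reads assigned in each library, an alternative chosen after the data were seen, it was 0.918. DNMT1 was thus lower in the DAC library by more than counting error, but how much lower depended on the scaling. Its log2 ratio of -0.41 lay at the 25.3 percentile of all symbols.

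The 2 listed transcripts of DNMT1 did not move equally. NM_001379, the common form, was at 102 FPKM (Cuffdiff bounds 38.0 to 166) in the untreated and 86.8 FPKM (38.6 to 135) in the DAC library. NM_001130823, the other form, was at 25.9 FPKM (0 to 61.3) untreated and 9.89 FPKM (0 to 27.3) with DAC, a 2.62-fold lower value. Its share of the DNMT1 FPKM was 20.2% and 10.2%. The bounds of both forms overlapped between the libraries. Of the 15 member transcripts that reached 1 FPKM in at least 1 library, NM_001130823 was the 1 more than 2-fold lower, where 10% of all 17744 such transcripts were.

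DNMT3B, a de novo methyltransferase (chr20:31350191-31397165, plus strand), had the highest DAC/untreated ratio of the members. It was at 4.96 FPKM in the untreated and 8.08 FPKM in the DAC library, a ratio of 1.63, and 1.61 (1.48 to 1.76) from 843 and 1352 reads. Relative to the median ratio it was 1.79. The log2 ratio of 0.70 lay at the 85.3 percentile of all symbols.

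Of the DNMT3B transcripts, 1 held most of the higher value. NM_175849 was at 2.30 FPKM (0.179 to 4.42) in the untreated and 5.39 FPKM (1.85 to 8.93) in the DAC library, 2.34-fold higher. NM_175848 was at 2.20 FPKM (0.202 to 4.19) and 2.01 FPKM (0 to 4.22), and NM_006892, the full form, at 0.461 FPKM and 0.677 FPKM. The share of NM_175849 was 46.4% and 66.7%, that of NM_175848 44.3% and 24.9%, and that of NM_006892 9.31% and 8.38%. The other 3 listed transcripts were at or near 0 in both.

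NM_006892 matches a GENCODE model of 23 exons and 853 codons, and the 3 expressed forms differ by exons of this model. NM_175848 lacks exon 10, of 60 bases. NM_175849 lacks exons 10, 21 and 22 (60, 70 and 119 bases), whose sum is its 249-base difference in length from NM_006892. Exons 21 and 22 encode part of the catalytic domain, and the form without them, known as DNMT3B3, is described as catalytically inactive. The skipped exons are shown from GRCh37, plus strand, in capitals with 10 intronic bases on each side in lower case, because reads on them or across their skipping set the shares above. They lie at chr20:31381342-31381401, chr20:31393144-31393213 and chr20:31394015-31394133.
DNMT3B exon 10: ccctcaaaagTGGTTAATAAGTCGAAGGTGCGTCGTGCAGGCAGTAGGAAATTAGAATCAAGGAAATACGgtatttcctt
DNMT3B exon 21: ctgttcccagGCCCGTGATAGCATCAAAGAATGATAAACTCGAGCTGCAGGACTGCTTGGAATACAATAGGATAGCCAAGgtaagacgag
DNMT3B exon 22: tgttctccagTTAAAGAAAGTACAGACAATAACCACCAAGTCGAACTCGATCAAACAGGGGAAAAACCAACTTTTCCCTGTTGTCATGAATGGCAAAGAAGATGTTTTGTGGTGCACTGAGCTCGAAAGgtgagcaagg

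DNMT3A, the other de novo methyltransferase (chr2:25450724-25565459, minus strand), was at 5.81 FPKM untreated and 7.84 FPKM with DAC, a ratio of 1.35 and 1.48 relative to the median. Counted in reads the values were 793 and 848, a ratio of 1.08 (0.976 to 1.19). The ratio in reads thus did not differ from 1 beyond counting error, but its interval lay above the median ratio of 0.912. The transcript that was higher, NM_175630, has 1775 bases, and a read on so short a transcript adds more FPKM than a read on a longer one. It was at 1.77 FPKM (0 to 4.98) untreated and 4.52 FPKM (0 to 9.13) with DAC, 2.55-fold higher, with a share of 30.5% and 57.7%. The annotated model of this length has 4 exons and 166 codons, too short to hold the catalytic domain.

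The transcripts that encode the DNMT3A enzyme had the lower value in the DAC library, not past 2-fold and with bounds that overlap. NM_022552, the long form, was at 2.87 FPKM (0.601 to 5.15) and 2.28 FPKM (0.249 to 4.31). NM_153759, the form from an internal promoter known as DNMT3A2, was at 1.17 FPKM (0 to 2.74) and 1.04 FPKM (0 to 2.83). The DAC/untreated ratio was 0.794 for NM_022552 and 0.886 for NM_153759, not divided by the median ratio of 0.912. That of NM_153759 was close to this median. NM_175629 was at or near 0 in both libraries.

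**Figure D2:**
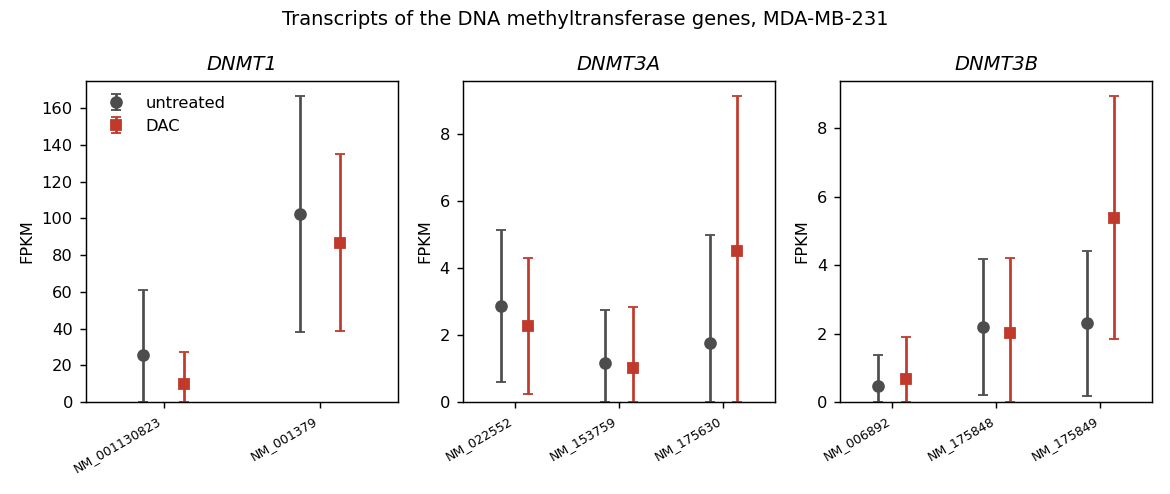
FPKM of the transcripts of DNMT1, DNMT3A and DNMT3B above 0.1 FPKM in the untreated (grey circles) and the DAC (red squares) MDA-MB-231 library, with bars from the lower to the upper Cuffdiff bound and an axis of its own for each gene. NM_175630 and NM_175849 lie higher with DAC and NM_001130823 lower, and the bars overlap for each transcript.

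Of the 25 member transcripts, 15 reached 1 FPKM in at least 1 library, and 2 of them, NM_175630 and NM_175849, were more than 2-fold higher, beside 13.9% of all 17744 transcripts. The Cuffdiff bounds were apart for 0 of these 15, beside 1.6% of the 17744, and for 0 of all 25. DNMT1 was at 25.8 times the level of DNMT3B and 22.0 times that of DNMT3A in the untreated library. In the DAC library these ratios of levels were 11.97 and 12.3. The summed levels include the forms that were higher with DAC, NM_175849 for DNMT3B and NM_175630 for DNMT3A. NM_175630 is too short for the catalytic domain and NM_175849 lacks part of it, so these are not ratios of enzyme-coding transcripts.

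UHRF1, the reader of hemimethylated CpG that DNMT1 needs (chr19:4903092-4962165, plus strand), was close to the median of all genes. It was at 40.9 FPKM untreated and 36.8 FPKM with DAC, a ratio of 0.901 and 0.900 (0.869 to 0.933) from 6455 and 5774 reads. Relative to the median the ratio was 0.987, at the 45.2 percentile of all symbols, and scaling to the reads assigned in each library, an alternative chosen after the data were seen, turned it to 1.09. The direction of UHRF1 thus depended on the scaling. NM_001048201 held 95.3% of its FPKM untreated and 96.7% with DAC. The DNMT1 level was 3.13 times that of UHRF1 in the untreated and 2.63 times in the DAC library.

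DNMT1 and UHRF1 are both genes of replicating cells, many of which are bound by E2F factors near the start. The words TTTCCCGC, TTTCGCGC, TTTGCCGC and TTTGGCGC, which together make up the E2F consensus, were searched on both strands of windows of 300 bases, from 250 before to 50 after each RefSeq start (GRCh38.p14). All 9 members matched a window. Of their 20 windows, 3 held a word, 1 of DNMT1 and 2 of UHRF1, beside 3.31% of 35116 windows of all genes. Each word holds a CpG, and the member windows were richer in CpG than all windows (given below), which the 3.31% does not take into account. A match is a description of the letters and not a site. The stretch from 50 bases before to 10 after the start is shown 5′ to 3′ for both genes, with the word in capitals, for DNMT1 from chr19:10194944-10195003 on the minus strand and for UHRF1 from chr19:4909451-4909510 on the plus strand.
DNMT1 start: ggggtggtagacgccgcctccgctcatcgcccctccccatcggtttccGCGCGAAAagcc
UHRF1 start: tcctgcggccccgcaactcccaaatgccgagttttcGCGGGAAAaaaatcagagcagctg
The member windows held 3 to 46 CpG dinucleotides each, with a median of 28.5, against a median of 14 in all windows, and the lowest was that of DNMT3B. The methylation of these windows was not analysed here.

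Of 24 genes of S phase and proliferation (such as PCNA, the MCM helicase and MKI67), 0 passed 2-fold in either direction. In the DAC library 18 had the lower value, but 14 lay below the median ratio of 0.912 described above. Their median log2 ratio was -0.25, against -0.09 for all symbols, and the list summed to 2775 FPKM untreated and 2268 FPKM with DAC. DNMT1 (-0.41) lay below that median and UHRF1 (-0.15) above it. The part of these genes in the DNMT1 value was not tested.

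The TET genes, which encode the oxidising enzymes, all had the lower value in the DAC library. TET3 (chr2:74212037-74335303, plus strand) was the most abundant, at 7.83 FPKM untreated (Cuffdiff bounds 4.27 to 11.4) and 5.48 FPKM with DAC (2.90 to 8.07). The ratio was 0.701 (0.666 to 0.738, from 3598 and 2505 reads), and 0.768 relative to the median. A GENCODE model of TET3 with 12060 exon bases shares 390 of them with a long noncoding RNA on the same strand. Part of the TET3 reads may thus be of either, but whether the listed transcript, of 10982 bases, holds the shared bases was not examined.

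TET2 (chr4:106067032-106200973, plus strand) had the lowest ratio of the members at 1 FPKM or more. It was at 1.98 FPKM untreated and 1.12 FPKM with DAC, a ratio of 0.563 (0.501 to 0.633, from 809 and 453 reads), and 0.618 relative to the median. Only 7.66% of symbols had a lower log2 ratio. NM_001127208 held 97.7% and 97.9% of it, with bounds of 0.704 to 3.17 FPKM and 0.257 to 1.93 FPKM that overlap.

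TET1 (chr10:70320094-70454244, plus strand) was hardly detected. It was at 0.105 FPKM from 42 reads untreated and 0.0478 FPKM from 19 reads with DAC, below the level used for calls in both. The ratio of 0.455 (0.499 relative to the median) has an interval of 0.250 to 0.800 and rests on few reads. TET3 was at 3.95 times the level of TET2 in the untreated and 4.91 times in the DAC library.

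MBD2 and MBD4, both with a methyl-CpG binding domain, differed in opposite directions. MBD2 (chr18:51677976-51751039, minus strand) was at 20.9 FPKM untreated and 14.2 FPKM with DAC, a ratio of 0.677, and 0.665 (0.634 to 0.698) from 4183 and 2764 reads. Relative to the median the ratio was 0.742. Its main transcript NM_003927 was at 19.3 FPKM (10.6 to 28.0) and 12.8 FPKM (6.80 to 18.7), and NM_015832, a shorter form, at 1.64 FPKM and 1.41 FPKM.

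MBD4 (chr3:129149790-129159022, minus strand) was at 16.4 FPKM untreated and 19.3 FPKM with DAC, a ratio of 1.18 (1.10 to 1.26, from 1617 and 1892 reads), and 1.29 relative to the median. NM_001276270 was at 10.5 FPKM and 12.3 FPKM and NM_001276271 at 5.89 FPKM and 6.75 FPKM, so that both main transcripts were higher with DAC and their shares hardly moved (63.9% and 63.9%, 36.0% and 34.9%). A GENCODE model of MBD4 with 2394 exon bases shares 135 of them with IFT122 on the opposite strand. Counting by strand is not stated, so reads there cannot be told apart. Whether the 2 main transcripts, of 2628 and 2338 bases, hold the shared bases was not examined.

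**Figure D3:**
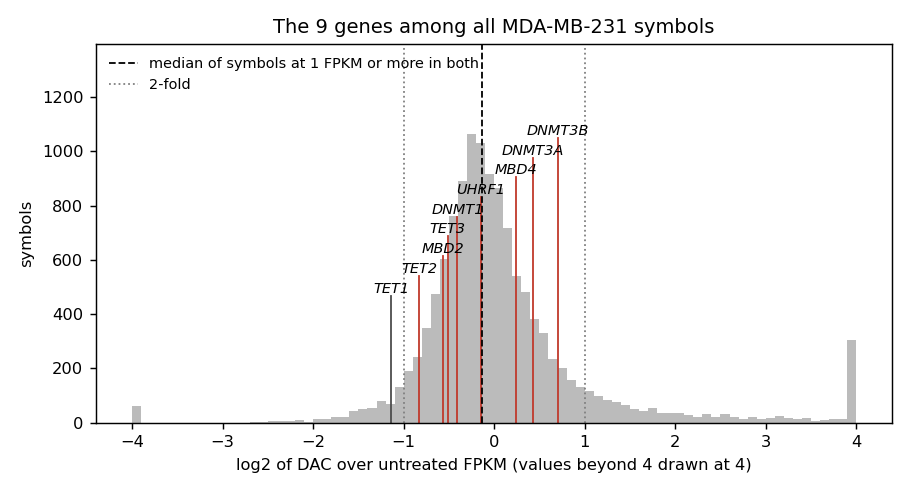
Histogram of the log2 DAC/untreated FPKM ratio of the 12525 symbols used for calls in MDA-MB-231, with the ratio of each member as a line (TET1, below that level, in grey), the log2 of the median ratio of 0.912 (dashed) and 2-fold (dotted). The 8 members at that level lie between -0.83 (TET2) and 0.70 (DNMT3B), inside the dotted lines.

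Counting error alone separated 8 of the 9 ratios from 1: the interval lay below 1 for 6 members (DNMT1, UHRF1, TET1, TET2, TET3 and MBD2) and above 1 for DNMT3B and MBD4, and that of DNMT3A held 1. Against the median ratio the interval lay below for 5 members, above for 3 (DNMT3A, DNMT3B and MBD4), and held the median for UHRF1. These intervals do not hold the spread between cultures, which these libraries do not give.

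In HMLER cells, the table analysed here lists 2009 transcripts of 1854 symbols, every one more than 2-fold higher with DAC and at 1 FPKM or more in the treated cells, with 1 value per condition merged over 2 libraries. None of the 9 members was in it (0 of 9), beside 10.9% of the 12525 symbols at 1 FPKM or more in MDA-MB-231. The 9 include TET1, which was below that level. The levels of the members in HMLER, and whether any was lower there, were not analysed here.

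The genes that work with the members were described by 7 lists with 99 genes in all, of which 89 reached 1 FPKM. In MDA-MB-231, 1 passed 2-fold upward and 2 passed it downward, beside 10.8% and 4.82% of all symbols. With 1 FPKM asked for in both libraries, 1 passed upward and 1 downward, beside 494 and 466 of 11292 symbols. Among 12 partners of maintenance and de novo methylation, such as the remodeller HELLS and the corepressor TRIM28, 8 reached 1 FPKM in at least 1 library and 0 passed 2-fold. The list's median log2 ratio was -0.48, the lowest of the 7. DNMT3L, the cofactor of the de novo enzymes, was listed at 0 in both libraries.

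The 10 genes of methyl donor supply, which make S-adenosylmethionine and recycle its product, had a median of -0.26 and 0 past 2-fold. Among the 12 other methyl-CpG readers the median was -0.11, and MBD5 was 2.72-fold lower (1.92 FPKM untreated and 0.707 FPKM with DAC), a call lost with a pseudocount of 1, with 1 FPKM asked for in both libraries, with 5 FPKM and with bounds apart. Bounds apart, here and below, refers to the Cuffdiff bounds of a gene's transcript of highest FPKM over both libraries, whereas the call is on the sum. The 12 subunits of the NuRD complex that MBD2 recruits all reached 1 FPKM, with a median of -0.27 and 0 past 2-fold. Of these, 9 were lower in the DAC library and 8 lay below the median ratio of 0.912. The 6 other binders of unmethylated CpG had a median of -0.01 and 0 past 2-fold.

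Of 23 partners of demethylation and base excision repair, 20 reached 1 FPKM, with a median of -0.08. NEIL1, a glycosylase of base excision repair, was 2.03-fold higher (1.16 FPKM untreated and 2.35 FPKM with DAC), a call lost with a pseudocount of 1 or 0.1, with 5 FPKM asked for and with bounds apart. IDH1, an enzyme that makes the 2-oxoglutarate that TET enzymes consume, was 2.33-fold lower (30.1 FPKM and 12.9 FPKM), a call lost when scaled to assigned reads and with bounds apart. In the HMLER table, 4 of the 99 genes were listed, beside 10.9% of the symbols used for calls in MDA-MB-231. The 99 include genes below 1 FPKM in MDA-MB-231, as the 10.9% does not. The HMLER values are those of the listed transcripts alone, and the MDA-MB-231 values are sums over all transcripts of a symbol. For POLB, the polymerase of base excision repair, the 1 listed HMLER transcript was at 13.1 FPKM untreated and 37.2 FPKM with DAC, and the MDA-MB-231 sum was 2.20 FPKM and 3.09 FPKM. The 1 listed transcript of GADD45G was at 0.545 FPKM and 1.48 FPKM in HMLER, and its sum was below 1 FPKM in MDA-MB-231. GADD45A and RRM2, the other two, had the lower value with DAC in MDA-MB-231.

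**Figure D4:**
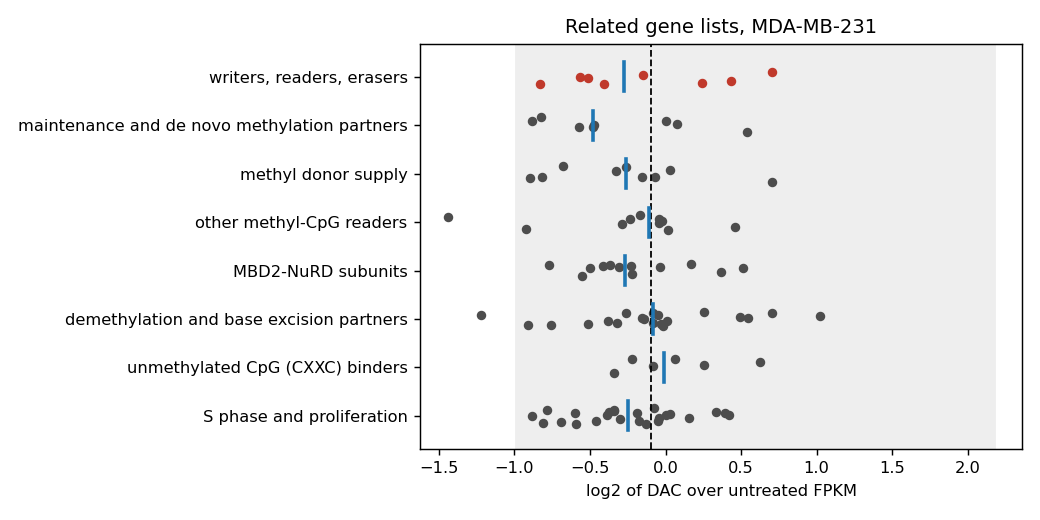
The log2 DAC/untreated FPKM ratio in MDA-MB-231 of each gene at 1 FPKM or more (points), for the members (red) and the 7 lists of related genes (grey), with the median of each (blue bar), the median of all symbols at -0.09 (dashed) and the central 90% of all symbols, from -0.99 to 2.18 (shaded). The members' median of -0.28 lies between those of the lists, which run from -0.48 to -0.01.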

How the data were processed

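RNA of MDA-MB-231 and HMLER cells, untreated or treated with DAC, was sequenced in 6 libraries. Per the labels, hg19, TopHat2 and Cuffdiff were used, with versions not given in the sources used here, and Cuffdiff gave the authors FPKM for RefSeq transcripts. The deposited FPKM are normalised for transcript length and library, and MDA-MB-231 values carry lower and upper bounds. The HMLER table also holds the authors' fold changes, p-values and q-values, which were not used.

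FPKM of the transcripts of a symbol were summed and DAC/untreated ratios taken without a pseudocount. Calls needed more than 2-fold and 1 FPKM in at least 1 library. Reads were inferred from FPKM times the length minus 205 bases, on which 100% of 863 (untreated) and 935 (DAC) low values lay within 0.1 of a whole read, and serve for intervals and 1 scaling alternative. The steps were tested on simulated data. The members, and the lists of related genes, were chosen with earlier results of these data known. Named were all members with their transcripts, list genes past 2-fold and list genes in the HMLER table, and TRIM28, HELLS, PCNA, MKI67 and DNMT3L as examples of their lists, picked after their values were seen. Of the 99 list genes, 2 were found under older symbols. Exons come from GENCODE lifted to GRCh37, the assembly of hg19, and start windows from RefSeq on GRCh38.p14. The sequence of 1 exon is not reported here. Alternatives are given in the closing section. The scripts ran under Python 3.11.15 with matplotlib 3.10.9, pandas 2.3.3, numpy 2.4.6 and scipy 1.17.1.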

Additional observations from a re-analysis of the deposited data

Results flagged for a closer look

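Of the genes in the lists, 3 had the lower value with DAC in MDA-MB-231 and are in the HMLER table of transcripts that were higher with DAC. GADD45A had a log2 DAC/untreated ratio of -0.51 in MDA-MB-231 (60.3 FPKM and 42.3 FPKM), and its listed HMLER transcripts were at 63.4 FPKM untreated and 144 FPKM with DAC. RRM2, a subunit of ribonucleotide reductase, had -0.60 (122 FPKM and 80.5 FPKM), against 3.98 FPKM and 8.20 FPKM for its 1 listed HMLER transcript. CD44, a surface marker of MDA-MB-231, had -0.61 (212 FPKM and 139 FPKM), against 1.23 FPKM and 8.26 FPKM for its 1 listed HMLER transcript. The MDA-MB-231 values are sums over all transcripts, whereas HMLER transcripts that did not rise are not listed. Neither the levels nor the directions of these genes as wholes can therefore be compared between the lines. The difference between the lines was not tested, since HMLER gives 1 merged value per condition and MDA-MB-231 was sequenced once per condition. None of the 9 members was in this position.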

How the results depend on the processing

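Of 63 alternative values of the members' ratios, 1 changed its direction: UHRF1 was at a log2 ratio of 0.13 after division by the ratio of assigned reads (0.823). The cause was not tested. Many of the 63 values could not change direction. A pseudocount never changes it, and keeping only transcripts of Cuffdiff status OK left every member's value as it was. For TET1 and TET3, with 1 listed transcript each, the largest transcript and the inferred reads could not change it either. The number of members more than 2-fold higher was 2 with the largest transcript (DNMT3A and DNMT3B) and 1 at 1.5-fold (DNMT3B). The largest transcript was picked on the FPKM of both libraries, the DAC value included. The number lower was 1 without a filter (TET1) and 1 at 1.5-fold (TET2). The other settings gave 0 in both directions, and 0 members were in the HMLER table at 5 FPKM or more. Pseudocounts, stricter FPKM levels and bounds apart can only remove calls, so with 0 calls before them they had to give 0. The same holds for 5 FPKM in the HMLER table.

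Of the related genes, the number higher was 0 with a pseudocount of 1 or 0.1, 0 with 5 FPKM, 0 with bounds apart, 2 without a filter and 4 at 1.5-fold. The number lower was 3 with the largest transcript, 0 with bounds apart and 17 at 1.5-fold. It was 1 with a pseudocount of 1, with 1 FPKM in both, with 5 FPKM and with assigned reads.

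Over all symbols, 1350 were higher and 604 lower. The number higher was 863 with a pseudocount of 1, 5193 without a filter, 494 with 1 FPKM in both, 465 with 5 FPKM, 2124 at 1.5-fold and 118 with bounds apart. The number lower was 410 with a pseudocount of 1, 1080 without a filter, 466 with 1 FPKM in both and 453 with 5 FPKM. It was 1944 at 1.5-fold, 35 with bounds apart and 336 with assigned reads. The higher share of calls was 69.1%, or 77.3% divided by the median ratio and 84.3% by assigned reads. With 1 FPKM in both or with 5 FPKM, however, the numbers higher and lower were nearly equal.

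Division by assigned reads was chosen after seeing the data. It brought the ratio of DNMT1 to 0.918, of TET3 to 0.852, of MBD2 to 0.823, of TET2 to 0.685 and of TET1 to 0.553. The ratios of DNMT3B, DNMT3A and MBD4 became 1.98, 1.64 and 1.44. No paired analysis was possible because MDA-MB-231 has 1 library per condition and HMLER 1 merged value per condition. The TET1 ratio rests on 42 and 19 reads. What sets the width of the transcripts' bounds was not tested.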
